A study of Mus musculus with 5 samples.

Results

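Messenger RNA levels of 10 genes that bring glucose into the fat cell, trap it there and relay the insulin signal were followed in inguinal white adipose tissue, a subcutaneous fat depot of the mouse. They are the glucose transporters Slc2a4 and Slc2a1, the hexokinases Hk1 and Hk2, the insulin receptor Insr, the receptor substrates Irs1 and Irs2, the phosphoinositide 3-kinase subunit Pik3r1, the kinase Akt2 and the Rab regulator Tbc1d4. They were chosen by gene name, and all 10 were found once among the 53700 genes of the table with T3 libraries and once among the 55416 genes of the high-fat diet table. The study profiled RNA by sequencing in 5 libraries, 1 per group. Floxed mice carry the receptor gene between recombination sites and serve as the control genotype. ATRβKO mice lack thyroid hormone receptor β in adipocytes, as the series title and genotype label name them. The first table holds floxed mice given vehicle (PBS), floxed mice that received T3 (triiodothyronine, the form of thyroid hormone that binds its receptors) and T3-treated ATRβKO mice, all on normal food. They had 7 daily injections, tissue was taken 24 hours after the last one, and each library pooled the fat of 3 mice. The second table holds floxed and ATRβKO mice fed a high-fat diet (HFD) for 2 to 3 months. Age, sex and the promoter that drives recombination are not given in the sources used here.

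As background, insulin binds its receptor, which phosphorylates receptor substrates. These recruit phosphoinositide 3-kinase, whose lipid product activates Akt2. Akt2 phosphorylates Tbc1d4 (AS160) and so releases vesicles that carry the transporter GLUT4, the product of Slc2a4, to the cell surface. Inside the cell hexokinase converts glucose to glucose 6-phosphate, which cannot leave through the transporters. In fat this glucose feeds glycolysis, the glycerol backbone of triglyceride and new fatty acids.

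Values are FPKM, that is fragment numbers divided by transcript length and by the library's total, so levels can be set side by side between genes of 1 library. Each group is a single library, so animal-to-animal spread is unknown and no test was made. A gene was called higher or lower where the ratio of FPKM + 1 was at least 2-fold and the higher library reached 1 FPKM. Intervals given below are exact 95% intervals for counting error only, for ratios within the T3 table. They were made at an estimated depth of 14.2 to 15.4 M (mega) fragments in its libraries and as if each transcript were 1 kb long. The annotated transcripts of the 10 genes run to 3193 bases or more, so the true counting error is smaller. An interval that holds 1 is thus too wide to show that levels are alike. Over all genes the T3 library lay 0.21 log2 units under vehicle at the median, and the ATRβKO-labelled T3 library lay 0.18 above floxed T3. Log2 ratios are therefore also given after subtracting that median. Thrb, the targeted gene, stood at 4.44, 4.43, 4.26 and 4.38 FPKM in vehicle, floxed T3, ATRβKO-labelled T3 and floxed HFD. A gene-level value can miss a partial deletion or come from other cells, and is therefore no check of the genotype label, and ATRβKO libraries are named by their labels. The library labelled ATRβKO (HFD) had a summed FPKM of 1891065 against 748645 to 787969 in the others. Its values are scattered, with 47.7% of 17711 genes past 2-fold above floxed HFD and 32.0% past 2-fold under it, and it enters no comparison. All 16 adipocyte markers examined were above 1 FPKM in each of the 4 libraries used.

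**Figure D1:**
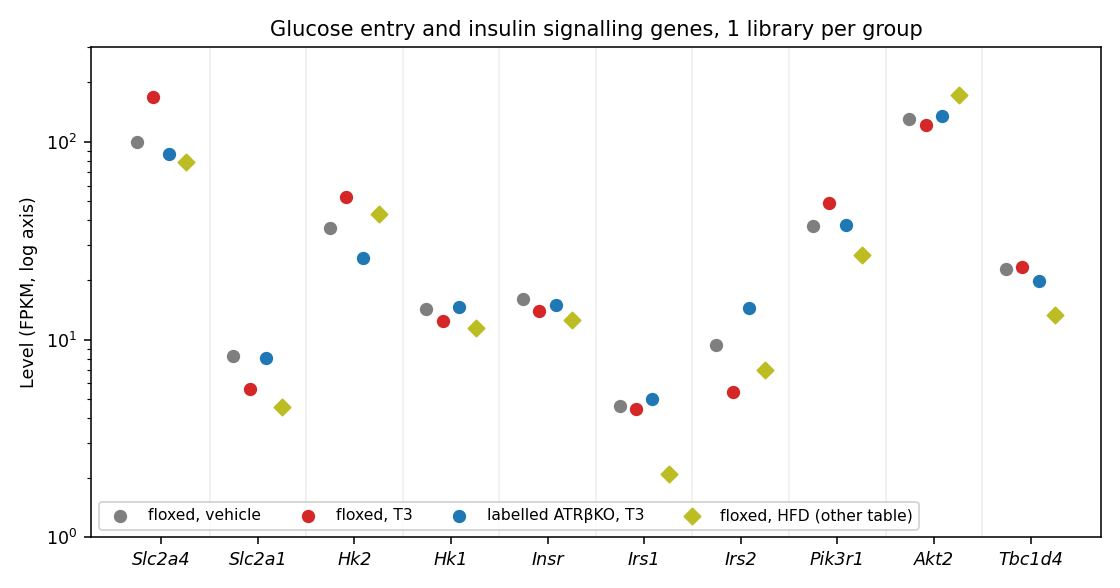
Level of each of the 10 genes (FPKM, log axis), 1 point per library, with floxed HFD from the separately made table drawn as diamonds. Slc2a4 and Hk2 were highest among the T3-table libraries in floxed T3 (169 and 52.4 FPKM), and Irs2 was lowest there (5.45 FPKM).

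Slc2a4, the insulin-responsive transporter, was the more abundant of the transporter pair and higher in floxed T3. Slc2a4 (ENSMUSG00000018566) stood at 99.6 FPKM in vehicle, 169 in floxed T3, 86.3 in the ATRβKO-labelled T3 library and 79.4 in floxed HFD. Within the T3 table floxed T3 was highest, and the ATRβKO-labelled T3 library was under vehicle (fold 0.866, interval 0.803 to 0.935). Slc2a4 was 1.70-fold higher with T3 than with vehicle (interval 1.59 to 1.81), short of the 2-fold rule, and its log2 ratio was 0.76, or 0.96 relative to the median of all genes. In the ATRβKO-labelled T3 library it was 1.96-fold lower than in floxed T3, with a log2 ratio of -0.96. Relative to the median of all genes that ratio was -1.14, past the rule, but the share of all genes past it at that scale is not given.

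Slc2a1, which encodes GLUT1, the transporter that works without insulin, was lowest in the T3 table where Slc2a4 was highest. Slc2a1 (ENSMUSG00000028645) stood at 8.30 FPKM in vehicle, 5.62 in floxed T3, 8.05 in the ATRβKO-labelled T3 library and 4.55 in floxed HFD. In floxed T3 it was 1.48-fold under vehicle, with a log2 ratio of -0.49, or -0.28 relative to the median of all genes. For the ATRβKO-labelled T3 library to vehicle the fold was 0.970, with an interval that held 1 (0.743 to 1.25). Within a library, where scaling cancels, Slc2a4 was 12.0 times the level of Slc2a1 in vehicle, 30.1 times in floxed T3, 10.7 times in the ATRβKO-labelled T3 library and 17.4 times in floxed HFD.

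The other transporters of the family changed its make-up with T3. Slc2a5, which encodes the fructose transporter GLUT5, was called higher in floxed T3, at 27.1 against 6.01 FPKM in vehicle (4.51-fold). It was called lower in the ATRβKO-labelled T3 library, at 5.28 FPKM, and stood at 1.52 in floxed HFD. Slc2a3, the high-affinity transporter GLUT3, was called lower in floxed T3, at 3.59 against 8.38 FPKM, a call that did not hold after rescaling to the median of all genes. It stood at 5.92 FPKM in the ATRβKO-labelled T3 library and at 2.82 in floxed HFD. Slc2a8, an intracellular transporter, was at 10.8, 9.53, 11.7 and 14.2 FPKM in vehicle, floxed T3, ATRβKO-labelled T3 and floxed HFD. Slc2a13, an inositol transporter, was at 4.83, 2.28, 4.06 and 5.54 FPKM in the same order. Slc2a6, Slc2a9, Slc2a10 and Slc2a12 stayed between 0.62 and 3.98 FPKM, Slc2a2 was at most 0.13 and Slc2a7 was listed at 0. Over 12 family genes the summed level was 146 FPKM in vehicle, 223 in floxed T3, 128 in the ATRβKO-labelled T3 library and 118 in floxed HFD. Slc2a4 made up 68.4%, 75.8%, 67.4% and 67.6% of these sums.

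**Figure D2:**
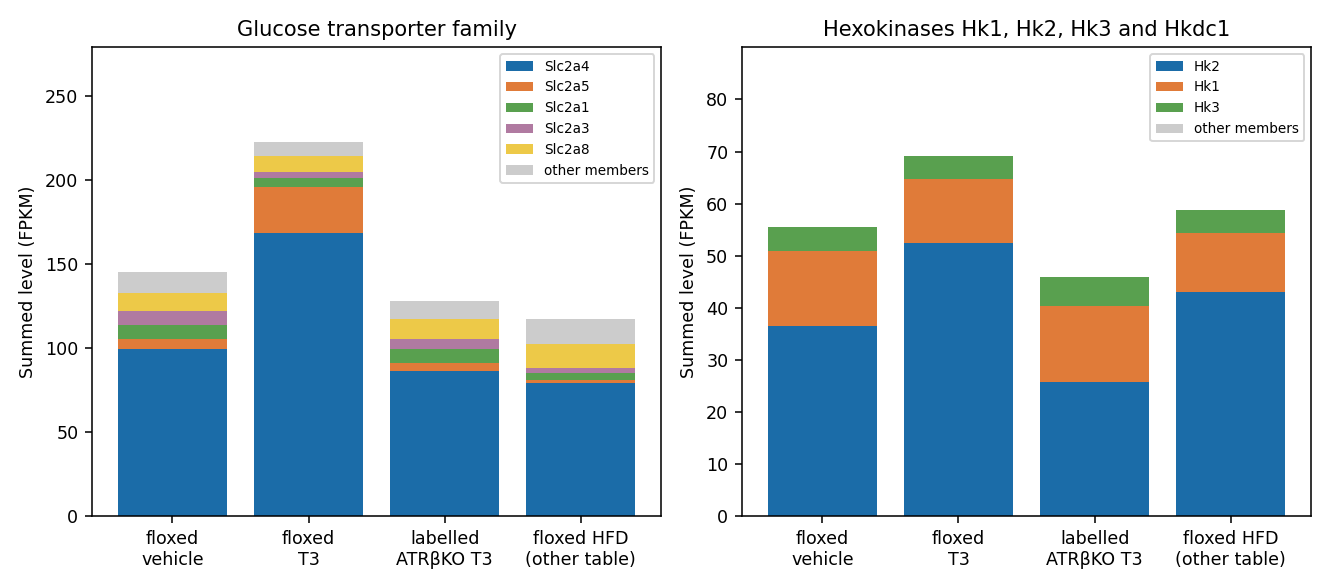
Summed level (FPKM) of the glucose transporter family (left) and of the hexokinases Hk1, Hk2, Hk3 and Hkdc1 (right), 1 bar per library, split by gene. The transporter sum was 223 FPKM in floxed T3 against 146 in vehicle, the part that differed most was Slc2a4, and Slc2a5 was thickest in floxed T3.

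Hk2, the inducible hexokinase that insulin-sensitive tissues use, followed the order of Slc2a4 in the T3 table, while Hk1, the widely expressed form, kept within 12.4 to 14.5 FPKM there. Hk2 (ENSMUSG00000000628) stood at 36.5 FPKM in vehicle, 52.4 in floxed T3, 25.8 in the ATRβKO-labelled T3 library and 43.0 in floxed HFD. Floxed T3 was highest and the ATRβKO-labelled T3 library lowest of the 4. With T3 Hk2 was 1.43-fold higher than with vehicle (interval 1.28 to 1.60). In the ATRβKO-labelled T3 library it was 2.03-fold lower than in floxed T3, but its log2 ratio with the pseudocount was -0.99, just short of the rule. Relative to the median of all genes that ratio was -1.17, a scale at which no share of all genes past the rule is given. Hk2 was also under vehicle in that library (fold 0.706, interval 0.619 to 0.807).

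Hk1 (ENSMUSG00000037012) stood at 14.3 FPKM in vehicle, 12.4 in floxed T3, 14.5 in the ATRβKO-labelled T3 library and 11.4 in floxed HFD. The 1 kb intervals of its T3-table ratios held 1 (floxed T3 to vehicle 0.866, interval 0.707 to 1.06). With a longest annotated transcript of 4278 bases, these are too wide to show that the levels were alike. Hk2 was 2.55 times Hk1 in vehicle, 4.22 times in floxed T3, 1.78 times in the ATRβKO-labelled T3 library and 3.76 times in floxed HFD. Hk3, the hexokinase of myeloid cells, lay between 4.34 and 5.61 FPKM in the 4 libraries, and Hkdc1 was at most 0.03. Of the summed level of Hk1, Hk2, Hk3 and Hkdc1, Hk2 made up 65.9% in vehicle, 75.7% in floxed T3, 56.2% in the ATRβKO-labelled T3 library and 73.1% in floxed HFD.

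Irs2 was the only one of the 10 genes past the 2-fold rule in a T3-table comparison at the deposited scale with a pseudocount of 1. Irs2 (ENSMUSG00000038894), an adaptor that couples the receptor to phosphoinositide 3-kinase, stood at 9.42 FPKM in vehicle, 5.45 in floxed T3, 14.5 in the ATRβKO-labelled T3 library and 7.03 in floxed HFD. The ATRβKO-labelled T3 library was highest and floxed T3 lowest. Irs2 was 2.66-fold higher in the ATRβKO-labelled T3 library than in floxed T3 (interval 2.07 to 3.47), with a log2 ratio of 1.27, or 1.09 relative to the median of all genes. With a pseudocount of 5 FPKM that ratio was 0.90 and the call was lost. Under T3 in floxed mice it was 1.73-fold lower than with vehicle, with a log2 ratio of -0.69, or -0.49 relative to the median of all genes. The ATRβKO-labelled T3 library also lay above vehicle (1.54-fold, interval 1.24 to 1.92).

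Irs1 (ENSMUSG00000055980), the related adaptor, was low across the T3 table, at 4.61 FPKM in vehicle, 4.47 in floxed T3 and 5.00 in the ATRβKO-labelled T3 library. It stood at 2.09 FPKM in floxed HFD. The 1 kb intervals of its T3-table ratios held 1 (floxed T3 to vehicle 0.970, interval 0.686 to 1.39), and are too wide to show that the levels were alike. Irs2 was 2.04 times Irs1 in vehicle, 1.22 times in floxed T3, 2.90 times in the ATRβKO-labelled T3 library and 3.36 times in floxed HFD. Irs3, a substrate that rodents retain and that is abundant in their fat cells, had a higher level than either, at 16.2, 15.2, 15.8 and 23.1 FPKM in the same order, and Irs4 was listed at 0 in all 4. Insr (ENSMUSG00000005534), the receptor itself, stood at 16.0 FPKM in vehicle, 13.9 in floxed T3, 15.0 in the ATRβKO-labelled T3 library and 12.6 in floxed HFD. Its T3-table ratios ran from 0.870 for floxed T3 to vehicle to 1.07 for ATRβKO-labelled T3 to floxed T3. Their 1 kb intervals held 1, but its longest annotated transcript has 9355 bases, so they are too wide to show that the levels were alike.

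The promoters of Irs2, Irs1 and Hk2 are shown because Irs2 and Hk2 had the extreme ratios, of opposite sign, between both T3 libraries. Irs1 is the relative of Irs2 and was called in no T3-table comparison. Each line is the 250 bases before the gene start in RefSeq on GRCm38.p6, written 5′ to 3′ on the minus strand that carries the gene, from chr8:11008930-11009179, chr1:82291440-82291689 and chr6:82774455-82774704. Capitals mark E-boxes (CACGTG) and GC boxes (CCGCCC, or GGGCGG on the other strand), which do not overlap here.
Irs2: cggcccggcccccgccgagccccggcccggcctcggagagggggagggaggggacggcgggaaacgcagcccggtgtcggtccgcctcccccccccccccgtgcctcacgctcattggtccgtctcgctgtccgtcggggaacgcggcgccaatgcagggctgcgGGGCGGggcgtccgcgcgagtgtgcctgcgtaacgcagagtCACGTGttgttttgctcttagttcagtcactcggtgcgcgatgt
Irs1: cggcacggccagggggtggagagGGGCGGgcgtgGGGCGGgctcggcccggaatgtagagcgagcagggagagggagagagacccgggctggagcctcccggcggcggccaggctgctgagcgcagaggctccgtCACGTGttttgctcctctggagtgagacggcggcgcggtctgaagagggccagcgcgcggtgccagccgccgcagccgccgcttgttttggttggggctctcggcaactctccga
Hk2: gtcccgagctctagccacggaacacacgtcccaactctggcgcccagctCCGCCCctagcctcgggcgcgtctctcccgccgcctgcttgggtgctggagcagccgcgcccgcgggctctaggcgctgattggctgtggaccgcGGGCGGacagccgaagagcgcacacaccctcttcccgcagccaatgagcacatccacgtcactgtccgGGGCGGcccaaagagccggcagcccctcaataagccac
Irs2 held 1 E-box at 44 to 39 bases before the start and 1 GC box. Irs1 held 1 E-box at 115 to 110 bases before the start and 2 GC boxes, and Hk2 held 3 GC boxes and no E-box. Among 32851 RefSeq promoter windows of the same length, 6.02% held the E-box and 32.7% the GC box on either strand. The nuclear receptor half-site AGGTCA (14.0% of windows) and the forkhead motif GTAAACA (3.17%) had no match in these windows or in those of the other 5 genes with an entry, which says only that these letters are absent there. Promoter entries were matched by symbol for 8 of the 10 genes.

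Pik3r1, the regulatory subunit p85α of phosphoinositide 3-kinase, was highest in floxed T3, short of the rule. Pik3r1 (ENSMUSG00000041417) stood at 37.3 FPKM in vehicle, 48.7 in floxed T3, 38.0 in the ATRβKO-labelled T3 library and 26.7 in floxed HFD. The ATRβKO-labelled T3 library to vehicle was 1.02-fold, with an interval that held 1 (0.904 to 1.15). Floxed T3 was 1.31-fold above vehicle (interval 1.17 to 1.46). Its relative Pik3r2 had the reverse order in the T3 table, at 26.0, 16.8 and 23.6 FPKM in vehicle, floxed T3 and ATRβKO-labelled T3. Pik3r1 thus made up 55.4%, 68.2% and 56.4% of the summed regulatory subunits Pik3r1, Pik3r2 and Pik3r3. In floxed HFD that share was 51.7%.

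Akt2, the Akt form that insulin-driven glucose uptake depends on, was the most abundant of the 10 genes in vehicle and kept within 121 to 135 FPKM across the T3 table. Akt2 (ENSMUSG00000004056) stood at 130 FPKM in vehicle, 121 in floxed T3, 135 in the ATRβKO-labelled T3 library and 172 in floxed HFD. Its log2 ratios were -0.11, 0.15 and 0.05 for T3 to vehicle, ATRβKO-labelled T3 to floxed T3 and ATRβKO-labelled T3 to vehicle. The intervals did not hold 1 for T3 to vehicle (0.869 to 0.989) or for ATRβKO-labelled T3 to floxed T3 (1.05 to 1.19). Both of these ratios changed sign relative to the median of all genes (0.10 and -0.02). Akt2 was 2.27 times Akt1 in vehicle, 2.40 times in floxed T3, 2.14 times in the ATRβKO-labelled T3 library and 3.62 times in floxed HFD. Tbc1d4 (ENSMUSG00000033083), the brake on GLUT4 vesicles that Akt2 releases, stood at 22.8 FPKM in vehicle, 23.2 in floxed T3, 19.7 in the ATRβKO-labelled T3 library and 13.3 in floxed HFD. For Tbc1d4 floxed T3 to vehicle was 1.02-fold, with an interval that held 1 (0.873 to 1.19). ATRβKO-labelled T3 to floxed T3 was 0.850-fold, with an interval under 1 (0.727 to 0.993). The log2 ratio of that pair was -0.22, or -0.40 relative to the median of all genes. Slc2a4 and Akt2 exchanged places with T3, since Slc2a4 was 0.764 times Akt2 in vehicle, 1.40 times in floxed T3, 0.641 times in the ATRβKO-labelled T3 library and 0.461 times in floxed HFD.

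How the group differed with T3 in floxed fat was the first question. By the 2-fold rule 0 of the 10 genes were called higher, against 2.30% of the 15031 genes compared, and 0 were called lower, against 3.98%. The 10 log2 ratios ran from -0.69 (Irs2) to 0.76 (Slc2a4) with a median of -0.07, beside -0.21 for all genes. After subtracting the median of all genes the ratios of Hk1, Insr, Irs1 and Akt2 changed sign, and at equal totals that of Tbc1d4 did, so no direction is given for these 5 genes. At 1.5-fold Slc2a4 was called higher (5.22% of all genes) and Irs2 lower (14.0%). The second question was how genotype related to the group when both groups had T3. Irs2 was called higher (4.04% of 14988 genes) and 0 were called lower (2.01%). The ratios ran from -0.99 (Hk2) to 1.27 (Irs2) with a median of 0.11, beside 0.18 for all genes. At 1.5-fold Irs2 was called higher (13.4% of all genes) and Slc2a4 and Hk2 lower (5.06%). After rescaling to the median of all genes Slc2a4 and Hk2 passed the 2-fold rule too, and Insr, Irs1 and Akt2 changed sign. The share of all genes past the rule at that scale is not given here. These comparisons share the floxed T3 library, so an opposite sign in the second is partly built in.

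The third comparison does not use floxed T3 and sets the ATRβKO-labelled T3 library against vehicle. Of the 10 genes 0 were called higher (1.83% of 15175 genes) and 0 lower (1.79%), also at 1.5-fold (4.34% and 4.32%). The log2 ratios ran from -0.49 (Hk2) to 0.57 (Irs2) with a median of -0.01, beside -0.03 for all genes. Slc2a1, Hk1, Insr, Irs1, Akt2 and Pik3r1 lay within 0.10 of 0 there, Slc2a4 at -0.205 and Tbc1d4 at -0.198.

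**Figure D3:**
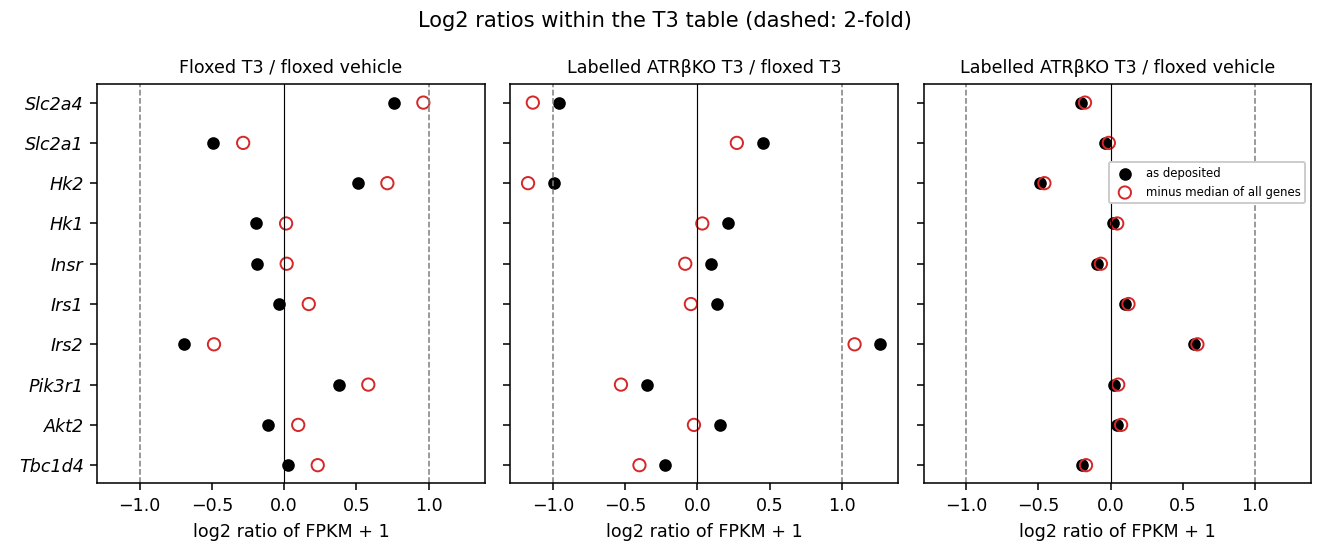
Log2 ratios of FPKM + 1 of the 10 genes in the 3 comparisons of the T3 table, as deposited (filled) and after subtracting the median of all genes (open), with dashed lines at 2-fold. In the middle panel Irs2 lies past the right line at both scales, and Slc2a4 and Hk2 pass the left line only after the subtraction (-1.14 and -1.17). No share of all genes past the lines is given after the subtraction.

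The wider pathway was described with 98 genes in 9 lists by role, which hold the 10 genes too. In floxed T3 against vehicle 91 of them passed the floor of 1 FPKM, 2 were called higher (Slc2a5 and Deptor) and 1 lower (Slc2a3), with a median log2 ratio of -0.17. Deptor, an inhibitor within mTOR complexes, was at 55.6 against 22.7 FPKM. In the ATRβKO-labelled T3 library against floxed T3, 92 passed the floor, 1 was called higher (Irs2) and 1 lower (Slc2a5), with a median of 0.14. After rescaling to the median of all genes Slc2a4, Hk2 and Deptor (-1.03) were called lower as well, with no share of all genes given at that scale. In the ATRβKO-labelled T3 library against vehicle 0 of 92 were called in either direction. At the deposited scale the shares called were near or under those of all genes (2.30% higher and 3.98% lower with T3, 4.04% and 2.01% by genotype under T3). Slc2a5 was called in both comparisons, which share the floxed T3 library.

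In the lists from the receptor-level inhibitors down, Deptor was the only gene called in these comparisons at the deposited scale. All 8 receptor-level inhibitors, such as the phosphatase Ptpn1 and the adaptor Grb10, were under vehicle with T3 at the deposited scale, with a median log2 ratio of -0.28 and 0 called, and 6 of 8 were also under the median of all genes. The 9 genes of phosphoinositide 3-kinase and its effector PDK1 had a median of -0.37 with T3 and 0.47 by genotype under T3. The medians of all genes were -0.21 and 0.18, and again 0 were called. With T3, 4 of the 9 lay above the median of all genes and 5 under it. By genotype 5 lay above it and 4 under it. Akt kinases and mTOR complexes had medians of 0.005 and 0.15. Lipid phosphatases, the Akt phosphatases Phlpp1 and Phlpp2 and the Trib pseudokinases had -0.14 and 0.04, and Akt substrates such as Foxo1 and Gsk3b -0.12 and 0.08, with 0 called. The 21 genes of GLUT4 vesicle traffic, from the aminopeptidase Lnpep to the fusion protein Snap23, had medians of -0.155 and 0.13 and 0 called in all 3 comparisons.

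**Figure D4:**
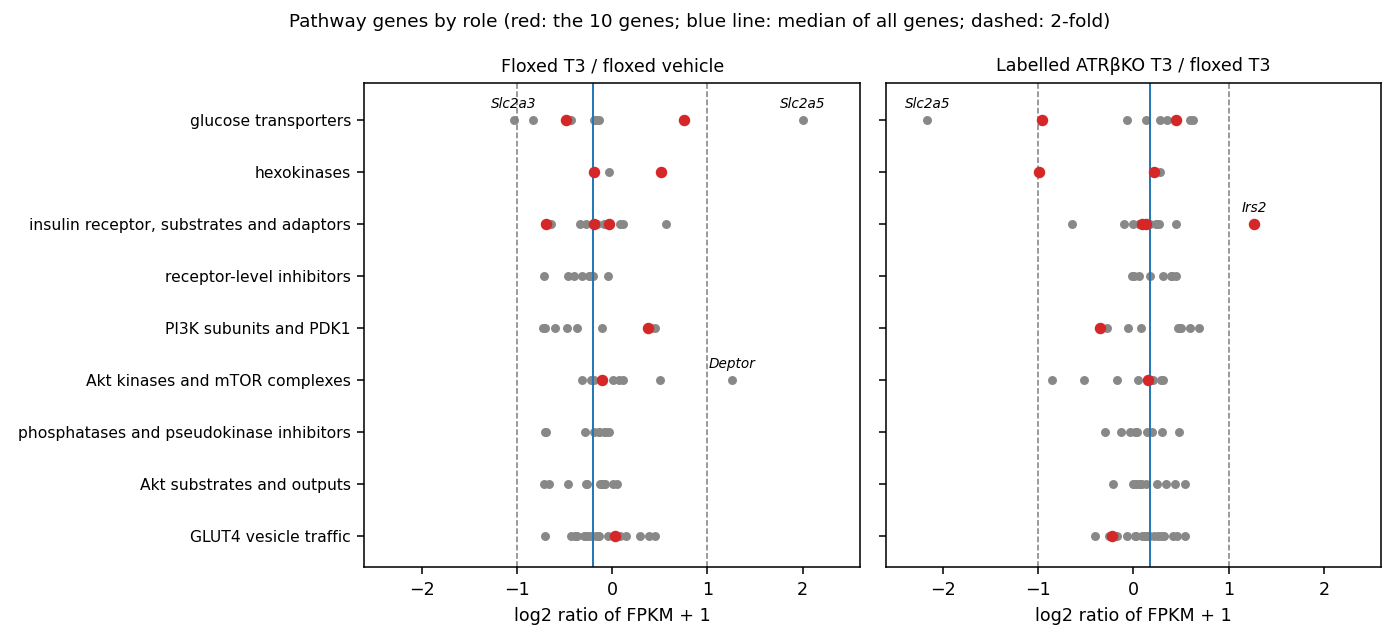
Log2 ratios of FPKM + 1 of the pathway genes past 1 FPKM, 1 point per gene and 1 row per role, for T3 against vehicle (left) and ATRβKO-labelled T3 against floxed T3 (right). Named points are past 2-fold (dashed), the 10 genes are red and the blue line is the median of all genes (-0.21 left, 0.18 right).

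Floxed HFD comes from the other table, which may have been normalized separately, so its levels are set beside the others with no ratio across tables. By rank within its own library Akt2 stood in the top 4.39% of genes at 1 FPKM or more, against the top 4.44% in vehicle. Slc2a4 stood in the top 9.31% in floxed HFD, 5.99% in vehicle and 3.50% in floxed T3. Hk2 was in the top 16.4% in floxed HFD, 18.1% in vehicle, 11.4% in floxed T3 and 25.5% in the ATRβKO-labelled T3 library. Irs1 was in the top 87.7% in floxed HFD and 71.3% to 73.4% in the T3 table. Tbc1d4 was in the top 42.7% against 26.3% to 33.0%, and Pik3r1 in the top 25.2% against 12.4% to 17.7%. Slc2a1 was in the top 72.2% against 59.1% to 67.0%. Floxed HFD thus had the lowest rank of the 4 libraries for Slc2a4, Slc2a1, Irs1, Tbc1d4 and Pik3r1. Akt2 had no clear order, since among genes at 5 FPKM or more it stood in the top 6.30% in floxed HFD and 6.21% in vehicle. Insr and Hk1 were also lowest there, at 44.4% and 47.1%, and Irs2 at 60.6% lay between vehicle (55.2%) and floxed T3 (67.7%).

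Other cell types differed between the libraries, and in bulk tissue fewer cells of a type and less RNA per cell cannot be told apart. Skeletal muscle also uses Slc2a4 and Hk2, and its 22 markers summed to 3335 FPKM in vehicle, 767 in floxed T3, 3388 in the ATRβKO-labelled T3 library and 15020 in floxed HFD, with none at 0. With T3 19 of 22 muscle markers were called lower, such as Acta1 (104 against 472 FPKM), against 3.98% of all genes. Within the T3 table Slc2a4 and Hk2 were highest where the muscle sum was lowest. In floxed HFD, where that sum was highest, Slc2a4 was the lowest of the 4 libraries set side by side across tables, and Hk2 (43.0 FPKM) was above vehicle and under floxed T3. The part of muscle in these levels was not tested. Of 9 beige adipocyte markers, 7 passed the floor and 5 were called higher with T3, against 2.30% of all genes. The 9 markers summed to 453, 1419, 274 and 318 FPKM in vehicle, floxed T3, ATRβKO-labelled T3 and floxed HFD, with none at 0. Ucp1, the uncoupling protein, was at 24.3, 278, 7.13 and 2.04 FPKM. This is also the order of Slc2a4 and Hk2 within the T3 table. The part of beige cells in those levels was not tested. The 16 adipocyte markers summed to 30420, 23930, 28140 and 41360 FPKM, and their median levels were 702, 698, 626 and 1212 FPKM. By the sum floxed T3 was lowest in the T3 table, and by the median the ATRβKO-labelled T3 library was. Most of the lower sum was 1 gene, Cfd, at 11233 FPKM in vehicle and 4783 in floxed T3. With T3 5 of the 16 markers were above vehicle and 11 under it, with a median log2 ratio of -0.098.

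In the T3 table Irs2 had the order of the summed macrophage, fibroblast, muscle, Schwann cell and mammary epithelium markers. The muscle and Schwann cell sums were nearly tied between ATRβKO-labelled T3 and vehicle (1.02-fold each), where Irs2 was 1.54-fold. The mammary epithelium sums were low, at 2.77 FPKM in vehicle, 1.93 in floxed T3 and 4.11 in the ATRβKO-labelled T3 library. The 11 macrophage markers summed to 2042 FPKM in vehicle, 1484 in floxed T3 and 2573 in the ATRβKO-labelled T3 library, and the 9 fibroblast markers to 2472, 1590 and 3131 FPKM, with none at 0. The sums for floxed HFD were 1313 and 2596 FPKM. By genotype under T3, 1 of 11 macrophage and 3 of 9 fibroblast markers were called higher, against 4.04% of all genes. The part of these cell types in the Irs2 level was not tested. Slc2a3, which leukocytes use, was lower in floxed T3 along with the 10 T and NK cell markers (292 FPKM in vehicle, 136 in floxed T3, 230 in the ATRβKO-labelled T3 library and 18.3 in floxed HFD). The 7 B cell markers summed to 360, 214, 312 and 2.65 FPKM, and in floxed HFD all 7 were under 1 FPKM with none at 0. The part of leukocytes in these levels was not tested. The 11 endothelial markers, of a cell type that expresses Slc2a1, summed to 439, 574, 446 and 522 FPKM, highest where Slc2a1 was lowest in the T3 table. The 7 erythroid markers summed to 1423, 1909, 2186 and 3456 FPKM, with 1 at 0 in vehicle and in floxed T3. The 6 Schwann cell markers summed to 214, 135, 219 and 201 FPKM, and of 7 mammary epithelium markers at least 6 were under 1 FPKM in each library.

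**Figure D5:**
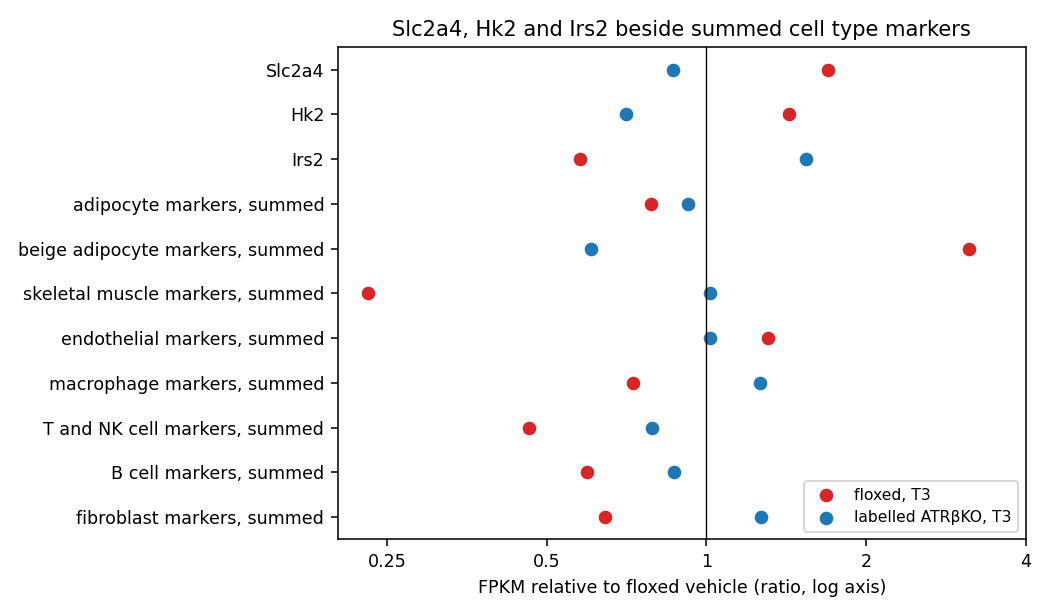
Level relative to floxed vehicle (ratio of FPKM, log axis) of Slc2a4, Hk2, Irs2 and the summed markers of 8 cell types, for floxed T3 (red) and the ATRβKO-labelled T3 library (blue). Slc2a4 lies at 1.70 and 0.866, Irs2 at 0.579 and 1.54, beige markers at 3.13 and 0.605 and muscle markers at 0.230 and 1.02.

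The genes whose T3-table pattern was nearest to Slc2a4 were Itpk1, Gbp2b, Cyc1, Nudt7 and Hadha, among 5180 genes whose highest T3-table library reached 20 FPKM. Nearness was the distance over the log2 ratios to vehicle of both T3 libraries, thus over 3 libraries, and was 0.03 for Itpk1 and 0.06 for Hadha. Cyc1, a subunit of respiratory complex III, stood at 134, 226 and 121 FPKM in vehicle, floxed T3 and ATRβKO-labelled T3, and Hadha, of mitochondrial fatty acid oxidation, at 146, 258 and 127 FPKM. Nearest to Hk2 were Nol3, Cisd3, Ldhd and Acadl, with distances of 0.01 to 0.12. Itpk1, Nol3 and Ldhd reached 20 FPKM only in floxed T3 (22.4, 20.9 and 23.6 FPKM), so the filter kept them through the group where they were high. Within a distance of 0.1 lay 9 genes for Slc2a4 and 2 for Hk2.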

How the data were processed

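The deposited values were made by the authors with HISAT2 and StringTie on GRCm39, per the submitters' processing notes, which give no versions or settings, and were taken here as FPKM. The unit is inferred, since headers and labels do not name it: values carry decimals, column sums are unequal, and StringTie reports FPKM. RNA was extracted with Trizol and sequenced from TruSeq libraries with paired reads, per the labels' protocols. Whether reads were counted by strand is not given in the sources used here.

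Log2 ratios of FPKM + 1 were made within the T3 table over all genes whose higher library reached 1 FPKM, with Python 3.11.15, pandas 2.3.3 and numpy 2.4.6. The code was tested on simulated data. With 1 library per group there are no replicates, no model was fitted and no p-value is given. Depth was estimated as the scale at which low values of single-exon genes (GENCODE M21 lengths) become whole fragments, from 302 to 422 genes near 1 fragment in the libraries used. The estimates in M (mega) fragments were 14.2 in vehicle, 15.4 in floxed T3, 15.3 in the ATRβKO-labelled T3 library and 22.6 in floxed HFD. That estimate depends on the transcript lengths, and intervals from it (scipy 1.17.1, exact binomial) cover counting error only.

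The 10 genes, the 9 pathway lists and the 11 marker lists were chosen with earlier results of these data known. Named genes were the 10 genes, pathway genes past the rule at 5 FPKM or more, the transporter and hexokinase families, the 3 most abundant markers of lists with a median of 0.5 or more in size, and the 5 genes nearest in pattern. Some genes that this rule names are not reported here. The relatives Irs3, Irs4, Akt1, Pik3r2 and Pik3r3, the marker Cfd and the pathway genes given only as examples of a list were added after their values were seen. Alternatives were pseudocounts of 0.1 and 5, a floor of 5 FPKM or none, rules of 1.5-fold and 4-fold, and rescaling to a median of 0, by an unweighted TMM (trimmed mean of M values), without the 50 most abundant genes or to equal totals.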

Additional observations from a re-analysis of the deposited data

Results flagged for a closer look

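Of the 10 genes, 5 stood past 2-fold above floxed HFD in the library labelled ATRβKO (HFD), which is drawn on for no result because its values are scattered. Of all genes at 1 FPKM or more in either library, 47.7% stood past 2-fold above floxed HFD and 32.0% past 2-fold under it, so a count of 5 of 10 is near the share of all genes. Irs2 was at 243 FPKM there against 7.03 in floxed HFD. Tbc1d4 was at 159 against 13.3 FPKM. Pik3r1 was at 82.1 against 26.7 FPKM. Insr was at 67.2 against 12.6 FPKM. Hk1 was at 48.6 against 11.4 FPKM. In the same library Slc2a4 was listed at 0, Hk2 was at 1.72 FPKM, Irs1 at 0.17 and Slc2a1 at 0.42, while Akt2, at 181 against 172 FPKM, was near floxed HFD. No reading of genotype is drawn from these values, and with 1 library per group no sample could be set against others of its group.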

How the results depend on the processing

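No paired analysis was possible because each group holds 1 library and the labels give no replicate numbers. For T3 against vehicle in floxed mice, the median log2 ratio of the 10 genes (-0.07) became 0.133 with the median of all genes set to 0, 0.148 with TMM and 0.038 without the 50 most abundant genes, and a rule of 1.5-fold called 1 gene higher and 1 lower where the 2-fold rule called 0. For the ATRβKO-labelled T3 library against floxed T3, the median (0.11) became -0.064, -0.077 and -0.004 under the same 3 rescalings. The count of genes called lower (0) became 2 under each of these, 2 at 1.5-fold and 1 with a pseudocount of 0.1, and the count called higher (1) became 0 with a pseudocount of 5 or a 4-fold rule. Shares of all genes called are given only for the 2-fold and 1.5-fold rules at the deposited scale with a pseudocount of 1. Counts under other settings thus have no background beside them. For the ATRβKO-labelled T3 library against vehicle, the median (-0.01) became 0.017 with the median of all genes set to 0 and 0.018 with TMM. Setting the median of all genes to 0 subtracts 1 constant from every log2 ratio, while the other rescalings act before the pseudocount is added and so move low levels less. The other 67 alternatives for these counts and medians kept them within 1.5 times or 0.1 log2 units. Slc2a4 (0.69 to 0.998) and Hk2 (0.44 to 0.75) stayed above vehicle and Irs2 (-0.78 to -0.47) below it with T3, over all settings run. Between both T3 libraries the ranges were -1.17 to -0.89, -1.19 to -0.90 and 0.90 to 1.40. With 1 library per group, animal-to-animal spread cannot be estimated, and at the lowest levels (Irs1, Irs2, Slc2a1) counting error is widest.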
